A study of Mus musculus with 6 samples.

Results

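The 9 genes described here encode transcription factors of the goblet lineage of the intestine: *Atoh1*, *Spdef*, *Gfi1*, *Creb3l1*, *Creb3l4*, *Foxa1*, *Foxa2*, *Foxa3* and *Klf4*. They were taken by symbol from a list of factors with known roles in secretory and goblet fate. That list was chosen with earlier results of these data known. All 9 were among the 18049 genes of the table and all passed the filter on low values that left 16670 genes for testing. Total RNA-Seq had been performed on crypts isolated from the colon of genetically modified mice of a single model, 3 given vehicle (control) and 3 given GSK503, and each mouse gave 1 library. GSK503 inhibits EZH2, the enzyme of the Polycomb repressive complex that methylates lysine 27 of histone H3, and the comparison asks how crypt transcription differs after this inhibition.

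The mice of both groups were of the C57BL/6J background, carried the *Villin-Cre* transgene with a conditional allele and a humanized *Tgf*β*RII* knockin, and were fed a Western-style diet from 8 weeks of age. *Villin-Cre* acts in the intestinal epithelium, so control and treated animals alike carried the deletion in epithelial cells, and no group without it was compared. Treated mice received GSK503 at 200 μg/kg by tail vein injection for 9 weeks, and control mice received the vehicle, 20% captisol in PBS. The age at the end of treatment was not given in the sources used here.

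Goblet cells make and secrete the mucus that lines the colon. Crypt progenitors with low Notch signaling express ATOH1, the basic helix-loop-helix factor that opens the secretory path, and GFI1 then holds secretory cells in the goblet and Paneth direction and away from the enteroendocrine one. SPDEF, an ETS factor, drives maturation of goblet cells, and the forkhead factors FOXA1, FOXA2 and FOXA3, the membrane-anchored factors CREB3L1 and CREB3L4, and the zinc finger factor KLF4 are known from mucus-producing or other secretory epithelia.

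The deposited values are RSEM estimates put on a common scale by the TMM method, and are given here as CPM (an estimated count relative to the TMM-scaled size of its library). The estimated total per library lay between 108162726 and 135084897 counts, so that 3 counts corresponded to 0.0228 to 0.0271 CPM, a floor that covers counting error only. The lowest single value of any of the 9 factors was 5.75 CPM. *Krt8*, an epithelial keratin, was at 4928 ± 408 CPM (SD, n = 3) in control and 5649 ± 660 CPM in GSK503-treated mice, as a check of the labelled tissue. *Xist*, expressed from the inactive X chromosome, had 0.419 to 0.936 CPM in controls against 825 to 1236 CPM after GSK503, and the Y-linked gene *Uty* had 42.5 to 53.7 CPM in controls against 0.670 to 1.08 CPM after GSK503. Treatment and the sex-linked pattern cannot be told apart in these 6 mice. The summed level of 8 smooth muscle markers was 22.7 to 94.1 CPM in the control mice, 5.11 and 4.76 CPM in GSK503-treated mice 1 and 2 and 127 CPM in GSK503-treated mouse 3, and the 6 B cell markers summed to 20.7 to 65.1 CPM, to 2.04 and 1.27 CPM and to 60.3 CPM in the same order. None of these markers was at 0 in all mice, and their part in the results on the factors was not tested. In bulk RNA, more cells of a type and more RNA per cell cannot be told apart.

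Of the 9 factors *Spdef* alone rose at an adjusted p below 0.05. Its level, and that of *Foxa2* and *Foxa3*, was higher in each GSK503-treated mouse than in any of the controls, and the same held for *Atoh1*, *Gfi1* and *Creb3l4*. No factor fell, and *Creb3l1*, *Foxa1* and *Klf4* had overlapping groups. The test was limma on log2(value + 0.1) over all 16670 genes with Benjamini-Hochberg adjustment, so each log2 fold change (log2FC, GSK503 minus control) is on that scale. At the adjusted p of 0.05, 1 of 9 factors was higher, against 0.498% of all genes tested, and 0 of 9 were lower, against 0.144%. At an adjusted p of 0.1, a threshold added after the data had been seen, 3 of 9 factors were higher (*Spdef*, *Foxa2* and *Foxa3*), against 1.41% of all genes, and 0 of 9 were lower, against 0.558%. The groups were apart, with treated mice above, for 6 of 9 factors, against 9.84% of all genes, and apart with treated mice below for 0 of 9, against 9.22%. Without GSK503-treated mouse 3, 0 of 9 factors were called at 0.05 (5 at an unadjusted p below 0.05) and the number at 0.1 was again 3. That number at 0.1 was 2 without GSK503-treated mouse 1 and 0 without GSK503-treated mouse 2. It was 1, 3 and 1 without control mouse 1, 2 and 3 in turn. With all mice, an unadjusted p below 0.05 was reached by 6 of the 9 factors, all of them higher and 0 lower. Of all 16670 genes tested it was reached by 2223, 1177 of them higher and 1046 lower. Limma-voom on the recovered counts likewise called 0 factors lower. The median log2FC of the 9 factors was 0.46, beside -0.0053 over all genes tested.

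**Figure D1:**
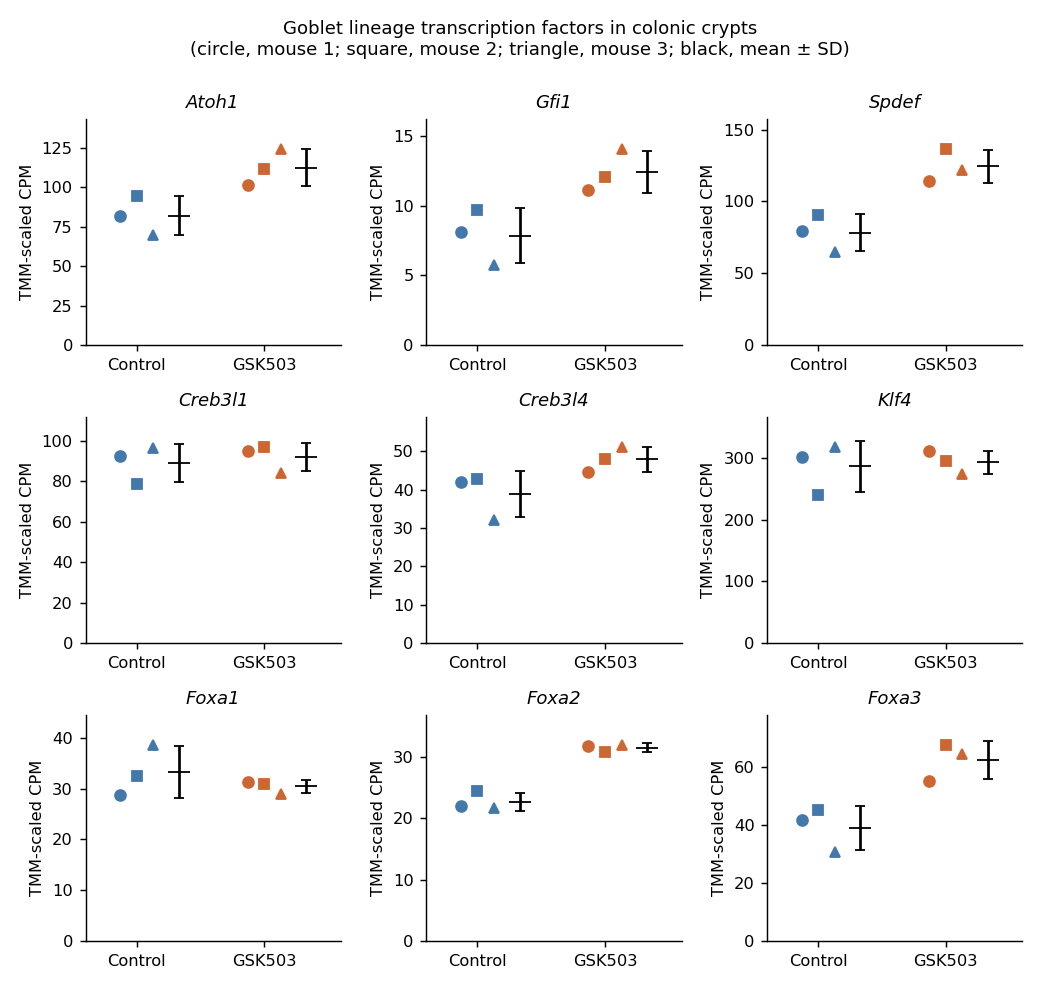
Level of each of the 9 factors in each mouse, in TMM-scaled CPM, with control mice and GSK503-treated mice side by side and a bar at each group mean. The groups are apart for *Atoh1*, *Spdef*, *Gfi1*, *Creb3l4*, *Foxa2* and *Foxa3* and overlap for *Creb3l1*, *Foxa1* and *Klf4*.

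*Atoh1* (ENSMUSG00000073043, GRCm39 chr6:64706109-64708229, plus strand) is the factor on which all secretory cells of the intestine depend. Its level was 81.8, 94.2 and 69.7 CPM in control mice 1, 2 and 3 and 101, 112 and 124 CPM in GSK503-treated mice 1, 2 and 3. Every treated mouse lay above the highest control mouse, and the means were 81.9 ± 12.3 and 112.5 ± 11.6 CPM (SD, n = 3 each). The log2FC was 0.46 (95% CI 0.20 to 0.73), and with an adjusted p of 0.123 in limma *Atoh1* did not pass the test.

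*Gfi1* (ENSMUSG00000029275, chr5:107864523-107873902, minus strand), a zinc finger repressor that acts after ATOH1, had the lowest level of the 9 factors. It was measured at 8.11, 9.67 and 5.75 CPM in the control mice and at 11.1, 12.1 and 14.1 CPM in the treated mice. The groups were apart, but the control mice differed from each other by a ratio of 1.68, the widest among the factors. The log2FC of 0.68 accordingly had a wide interval (95% CI 0.25 to 1.12) and an adjusted p of 0.162 in limma.

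*Spdef* (ENSMUSG00000024215, chr17:27933326-27947929, minus strand) encodes the ETS factor of goblet and Paneth cell maturation. It stood at 79.7, 90.3 and 65.0 CPM in the control mice and at 114, 137 and 122 CPM in the treated mice, with group means of 78.3 ± 12.7 and 124 ± 11.3 CPM. The lowest treated mouse was thus above the highest control mouse, and the ratio of the means was 1.59. The log2FC was 0.68 (95% CI 0.41 to 0.94, SE 0.12) with an adjusted p of 0.0459 in limma, which placed *Spdef* at rank 96 of all genes by p. This call lies close to the threshold, since 12 of 18 alternative settings lost it, and without GSK503-treated mouse 3 the adjusted p was 0.0579 at a log2FC of 0.69. Over all 18 alternatives the log2FC of *Spdef* stayed between 0.55 and 0.78, with adjusted p from 0.0353 to 0.250. An exact two-sided permutation test of 3 mice against 3 cannot give a p below 0.1, and that smallest p was reached by each of the 6 factors whose groups were apart.

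The forkhead factors are pioneer factors that bind closed chromatin, and the 3 paralogs are coexpressed in gut endoderm derivatives. *Foxa2* (ENSMUSG00000037025, chr2:147884797-147889005, minus strand) varied least among mice, with 22.0, 24.4 and 21.6 CPM in the control mice and 31.9, 30.8 and 32.0 CPM in the treated mice. The means were 22.7 ± 1.52 and 31.6 ± 0.674 CPM, and the gap between the groups was wider than the spread within either. Its log2FC was 0.48 (95% CI 0.28 to 0.67), with an adjusted p of 0.0505 in limma, just above the threshold. Of the 18 alternative settings, 3 called *Foxa2* at 0.05, and the adjusted p ranged from 0.0422 to 0.229.

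*Foxa3* (ENSMUSG00000040891, chr7:18747209-18757471, minus strand) was at 41.5, 45.1 and 30.5 CPM in the control mice and at 54.9, 67.6 and 64.2 CPM in the treated mice. It had the highest log2FC of the 9 factors, 0.69 (95% CI 0.37 to 1.01), with means of 39.0 ± 7.59 and 62.3 ± 6.57 CPM, though its interval overlapped those of the other 5 factors whose groups were apart. The adjusted p was 0.0732 in limma and ranged from 0.0658 to 0.318 over the 18 alternatives, so that *Foxa3* passed 0.05 in none of them. *Foxa1* (ENSMUSG00000035451, chr12:57587414-57593702, minus strand) showed no such shift. Its values were 28.6, 32.5 and 38.6 CPM in the control mice and 31.4, 30.9 and 29.0 CPM in the treated mice, all within the range of the controls, and the log2FC was -0.12 (95% CI -0.37 to 0.14, adjusted p 0.705 in limma). Leaving out control mouse 3 brought the log2FC of *Foxa1* to -0.0050, and leaving out control mouse 1 to -0.22.

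**Figure D2:**
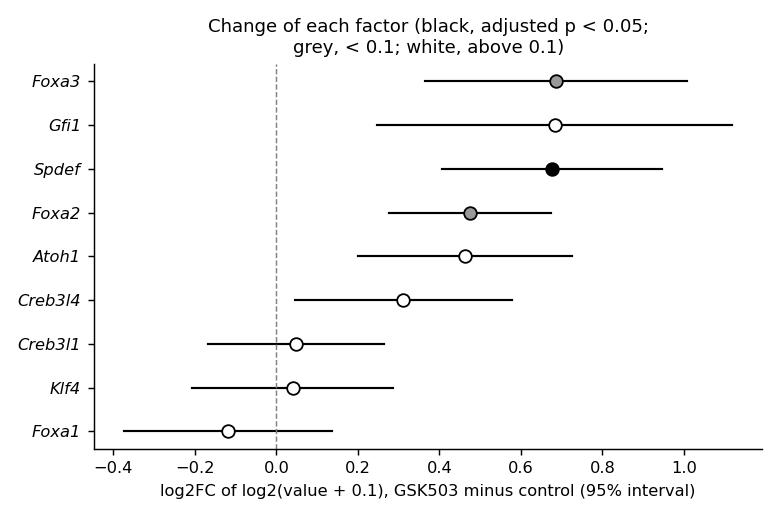
log2FC of each factor (GSK503 minus control, limma on log2(value + 0.1)) with its 95% confidence interval, n = 3 mice per group. The intervals of *Atoh1*, *Spdef*, *Gfi1*, *Creb3l4*, *Foxa2* and *Foxa3* lie above 0, and those of *Creb3l1*, *Foxa1* and *Klf4* include 0.

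Promoter sequence was examined because FOXA proteins bind forkhead sites, and the windows are shown for *Spdef*, the factor called higher, and for *Foxa3* and *Foxa1*, the FOXA genes with the highest and the lowest log2FC. Windows of 250 bases upstream of the RefSeq transcription start (GRCm38.p6, a build other than that of the gene coordinates above) were matched for 8 of the 9 factors, all but *Creb3l1*, as 13 windows. The windows of *Spdef* (chr17:27728952-27729201), *Foxa1* (chr12:57546112-57546361) and *Foxa3* (chr7:19023540-19023789), all on the minus strand, are shown 5′ to 3′, with the forkhead word TGTTTAC or TATTTAC, on either strand, in capitals:
Spdef: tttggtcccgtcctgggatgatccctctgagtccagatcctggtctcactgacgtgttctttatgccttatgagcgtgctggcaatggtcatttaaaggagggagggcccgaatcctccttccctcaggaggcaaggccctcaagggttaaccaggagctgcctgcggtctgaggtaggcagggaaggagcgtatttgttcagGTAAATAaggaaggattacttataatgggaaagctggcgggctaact
Foxa1: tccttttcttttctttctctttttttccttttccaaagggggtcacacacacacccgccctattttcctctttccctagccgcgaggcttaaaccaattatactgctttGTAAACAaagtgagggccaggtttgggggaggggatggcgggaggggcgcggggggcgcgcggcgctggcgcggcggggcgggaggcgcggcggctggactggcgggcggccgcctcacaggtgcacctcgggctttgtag
Foxa3: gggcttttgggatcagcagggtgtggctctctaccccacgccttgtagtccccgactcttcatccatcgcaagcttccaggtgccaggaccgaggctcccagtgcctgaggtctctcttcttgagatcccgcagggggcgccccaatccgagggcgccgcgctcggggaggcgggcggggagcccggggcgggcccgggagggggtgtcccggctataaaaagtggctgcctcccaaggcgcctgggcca
A forkhead word was found in the windows of *Spdef* and *Foxa1* and in none of the other 11 windows, and 5.76% of all 32851 windows held one. It begins 47 bases upstream of the start in *Spdef* and 141 bases upstream in *Foxa1*. Of the other words searched on both strands, the CRE core TGACGT was found in *Spdef* alone (6.47% of all windows), the E-box words CAGCTG or CAGATG in *Klf4* and in 1 window of *Creb3l4* (25.5% of all windows), and the SPDEF core CCGGAT in none of the 13 (4.94% of all windows). These are matches of letters only. CpG dinucleotides numbered 7 in *Spdef*, 14 in *Atoh1*, 18 in *Foxa3*, 21 in *Foxa1*, 32 in *Klf4*, 9 and 13 in the windows of *Gfi1*, 6 to 10 in those of *Creb3l4* and 6 to 20 in those of *Foxa2*, beside a median of 6 in all windows.

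Since the 3 paralogs gave unlike log2FC, the makeup of the FOXA transcripts was computed within each mouse per kb of the canonical transcript, a comparison chosen after the values had been seen. *Foxa3* made up 56.3%, 55.5% and 44.4% of the summed level per kb of the 3 paralogs in the controls against 57.8%, 63.3% and 62.4% after GSK503. *Foxa1* made up 24.6%, 25.4% and 35.6% in the controls against 20.9%, 18.3% and 17.8% after GSK503. These shares did not overlap between the groups (exact permutation p = 0.1 for both, the smallest possible), with group means of 52.0% ± 6.67 and 61.1% ± 2.96 for *Foxa3* and of 28.5% ± 6.14 and 19.0% ± 1.65 for *Foxa1* (SD, n = 3 each). Control mouse 3 held the lowest *Foxa3* share of all mice. Without it the difference in the *Foxa3* share was 5.24 percentage points and that in the *Foxa1* share -5.97, beside 9.08 and -9.50 with all mice. The share of *Foxa2* was 19.4% ± 0.540 and 19.9% ± 1.49, with overlapping groups (exact permutation p = 0.8, n = 3 each). The summed FOXA level per kb was 36.5 ± 3.08 in control and 49.7 ± 2.92 in treated mice.

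**Figure D3:**
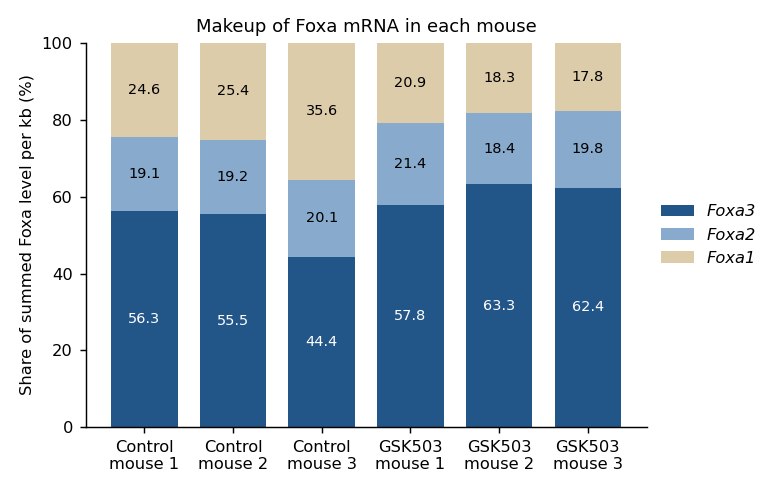
Share of each FOXA paralog in the summed FOXA level per kb of transcript, in percent, for each of the 6 mice. The *Foxa3* share is 44.4% to 56.3% in the controls and 57.8% to 63.3% after GSK503, and the *Foxa1* share is between 24.6% and 35.6% in the controls and between 17.8% and 20.9% after GSK503.

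*Creb3l1* and *Creb3l4* encode transcription factors held in the membrane of the endoplasmic reticulum and released by cleavage. *Creb3l1* (ENSMUSG00000027230, chr2:91812673-91854917, minus strand) was at 92.5, 78.6 and 96.5 CPM in the control mice and at 94.7, 97.1 and 84.2 CPM in the treated mice. The groups overlapped throughout, and the log2FC was 0.048 (95% CI -0.17 to 0.26, adjusted p 0.880 in limma). *Creb3l4* (ENSMUSG00000027938, chr3:90144103-90150845, minus strand) was at 41.9, 42.7 and 32.0 CPM in the control mice and at 44.5, 48.0 and 51.2 CPM in the treated mice. The groups were apart by a narrow margin, with a log2FC of 0.31 (95% CI 0.045 to 0.58) and an adjusted p of 0.300 in limma. Without control mouse 3, the lowest, the log2FC of *Creb3l4* was 0.18, and with scaling by library size alone it was 0.20. *Creb3l4* shares 241 exonic bases with *Jtb* on the opposite strand, 11.1% of its own exonic bases, and since the strand setting of the counting was not given in the sources used here, reads from these bases cannot be assigned with certainty. The share of *Creb3l1* in the summed level of both genes per kb was 65.5% ± 5.56 in control and 61.4% ± 3.27 in treated mice (exact permutation p = 0.4, n = 3 each).

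*Klf4* (ENSMUSG00000003032, chr4:55527139-55532528, minus strand), a zinc finger factor needed for goblet cell differentiation in the colon and also made by surface colonocytes, had the highest level of the 9 factors. It was measured at 302, 239.8 and 318 CPM in the control mice and at 311, 295 and 273 CPM in the treated mice, all 3 within the range of the controls. The log2FC was 0.040 (95% CI -0.21 to 0.29, adjusted p 0.918 in limma).

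Per kb of transcript, which permits levels of different genes to be compared, the order in the control mice was *Klf4* (94.5 ± 13.6 CPM per kb), *Spdef* (40.7 ± 6.59), *Atoh1* (38.6 ± 5.78), *Creb3l1* (34.0 ± 3.59), *Foxa3* (19.1 ± 3.71), *Creb3l4* (17.8 ± 2.74), *Foxa1* (10.3 ± 1.56), *Foxa2* (7.08 ± 0.473) and *Gfi1* (2.74 ± 0.689). Between mice the spreads (mean ± SD) of the neighbours *Spdef*, *Atoh1* and *Creb3l1* overlapped, as did those of *Foxa3* and *Creb3l4*. Within each control mouse, however, *Spdef* lay above *Atoh1* per kb and *Foxa3* above *Creb3l4*, while the place of *Creb3l1* varied. In CPM, *Atoh1* lay above *Spdef* in each control mouse, and *Foxa3* was not above *Creb3l4* in all of them. These orders thus rest on the transcript lengths used. In the treated mice *Klf4* was again at the top with 96.6 ± 6.20 CPM per kb, followed by *Spdef* at 64.7 ± 5.90, *Atoh1* at 53.0 ± 5.49 and *Creb3l1* at 35.1 ± 2.61. *Foxa2*, at 9.84 ± 0.210 CPM per kb, and *Foxa1*, at 9.43 ± 0.396, stood side by side there, and their ratio was 0.775, 0.756 and 0.563 in the controls against 1.02, 1.002 and 1.11 after GSK503. The ratio of *Spdef* to *Atoh1* was 1.07, 1.06 and 1.03 in the controls against 1.25, 1.35 and 1.08 after GSK503 (exact permutation p = 0.1, n = 3 each). These ratios were also chosen after the values had been seen.

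The 6 factors whose groups were apart also ranked the control mice alike. Control mouse 2 was the highest and control mouse 3 the lowest of the 3 controls for *Atoh1*, *Spdef*, *Gfi1*, *Creb3l4*, *Foxa2* and *Foxa3*, an order found in 15.9% of all genes tested. *Creb3l1*, *Foxa1* and *Klf4* had the other pattern, with control mouse 3 highest for each. Control mouse 3 was also the lowest control for 16 of 20 goblet product genes, against 33.7% of all genes tested. The same held for 7 of 9 tuft cell genes, but for only 3 of 19 immediate early genes. The full order was shown by 7 of the 20 product genes and by 6 of 6 B cell markers. In the treated group, mouse 1 was the lowest for *Atoh1*, *Spdef*, *Gfi1*, *Creb3l4* and *Foxa3*. The share of all genes with treated mouse 1 lowest was not computed, so this order cannot be set against it. The ratio of the highest to the lowest mouse was between 1.13 and 1.68 in the controls and between 1.04 and 1.26 in the treated mice, with *Foxa2* the lowest and *Gfi1* the highest in both groups.

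Likeness to other genes was described by Pearson's r of the log2 values over the 6 mice, among 9227 genes with a mean of at least 10 CPM and with the 9 factors themselves left out, and part of every such r is the difference between the groups that the genes share. For *Spdef* the closest genes were *Tspan13* (r = 0.998), *AW209491* (r = 0.996) and *Grtp1* (r = 0.991). For *Atoh1* they were *Ippk*, *Sec23ip* and *Ramp1* (r = 0.992 to 0.999), and *Ramp1* was also among the closest to *Gfi1* (r = 0.995), beside *Atp6v0e* and *Cd24a*. For *Foxa3* they were *P2rx4*, *Galnt5* and *Slc12a8* (r = 0.989 to 0.993), of which *Galnt5* encodes an enzyme that starts mucin-type O-glycans. *Foxa2* was nearest to *Ntmt1*, *Jund* and *Zfyve19* (r = 0.992 to 0.994) and *Creb3l4* to *Edrf1*, *Gde1* and *Pdcd6*. The factors with overlapping groups reached r as high: *Creb3l1* with *Gatm* (r = 0.999), *Foxa1* with *Mlec* (r = 0.992) and *Klf4* with *Fntb* (r = 0.991). Each r named is among the highest of 9227 over only 6 mice, and how high it would be by selection alone was not tested. Among the factors themselves, *Atoh1* and *Gfi1* had an r of 0.991 and *Spdef* and *Foxa3* an r of 0.990. *Atoh1* thus stood nearer to *Gfi1* than *Cd24a* did, and *Spdef* nearer to *Foxa3* than *Slc12a8* did. The genes named for *Atoh1* and for *Spdef* were all nearer to them than *Gfi1* and *Foxa3* were.

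Genes for the products of goblet cells were set beside the factors. Of 20 goblet product genes, 7 rose at an adjusted p of 0.05 and 0 fell, against 0.498% and 0.144% of all genes tested. The median log2FC of the 20 was 0.71. *Spink4*, a peptidase inhibitor of goblet cells, went from 653 ± 119 to 1748 ± 123 CPM (log2FC 1.43, adjusted p 0.00164 in limma), and *Retnlb*, a resistin-like protein secreted by goblet cells, from 153 ± 56.6 to 544 ± 53.4 CPM (log2FC 1.88, adjusted p 0.00423). *Capn9* and *Tpsg1* rose as well, by 1.25 and 1.14 on the log2 scale. To set the factors against the products, the log2 level of each factor was taken relative to the mean log2 level of the 20 products in the same mouse, a mean that was 7.09, 6.94 and 6.62 in the controls against 7.57, 7.79 and 7.65 after GSK503. Relative to it, *Foxa3*, *Gfi1* and *Spdef* differed least between the groups, with differences of -0.10, -0.10 and -0.11, followed by *Foxa2* at -0.31 and *Atoh1* at -0.32. For these 5 factors the exact permutation p lay between 0.2 and 0.5 (n = 3 each). Without control mouse 2 the differences were -0.012 for *Foxa3*, 0.036 for *Gfi1*, with the sign turned, and -0.028 for *Spdef*, and without GSK503-treated mouse 3 that of *Gfi1* was -0.20. *Creb3l4* at -0.47, *Creb3l1* and *Klf4* at -0.74 each and *Foxa1* at -0.90 were lower relative to the products in treated mice, each at the smallest possible exact p of 0.1. The result depends on the products chosen: relative to *Fcgbp*, *Clca1*, *Zg16* and *Tff3* alone, all 9 factors were lower in treated mice, by -0.56 (*Foxa3*) to -1.36 (*Foxa1*), with an exact p of 0.1 for each.

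Among 18 other secretory and epithelial fate factors, 0 rose and 0 fell at an adjusted p of 0.05, 2 were higher at 0.1, and the median log2FC was 0.03 (limma; 3 higher and 1 lower at an unadjusted p below 0.05, and 1, *Bhlha15*, higher by limma-voom). Over all 16670 genes tested by limma, 1.41% were higher at 0.1, and 1177 were higher and 1046 lower at an unadjusted p below 0.05. *Bhlha15* (MIST1), a factor of secretory cell architecture, was at 6.25, 2.91 and 4.62 CPM in the control mice and at 10.3, 14.4 and 11.3 CPM in the treated mice, with a log2FC of 1.41 and an adjusted p of 0.0505 in limma. *Creb3l3*, a further member of the CREB3 family, was at 1.58 ± 0.176 and 4.37 ± 1.62 CPM (log2FC 1.36, adjusted p 0.0699). *Xbp1*, the unfolded protein response factor of secretory cells, was at 148 and 157 CPM with a log2FC of 0.079 (95% CI -0.11 to 0.26), and *Sox9*, of crypt base and Paneth cells, was at 38.9 and 32.6 CPM with a log2FC of -0.26 (adjusted p 0.404).

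Notch signaling represses *Atoh1*, and of its 21 listed genes 20 were tested. None rose or fell by limma at an adjusted p of 0.05 or 0.1, nor by limma-voom at 0.05. With scaling by library size alone 2 were called lower, as were 178 of all 16653 genes tested there. At an unadjusted p below 0.05, 4 were lower and 0 higher, against 1046 lower and 1177 higher of all 16670 genes tested. The median log2FC was -0.14. The treated mice lay below the control mice for 4 of 20 and above them for 1, against 9.22% and 9.84% of all genes tested. The receptor genes *Notch2*, at 27.7 ± 2.55 and 20.8 ± 0.311 CPM (log2FC -0.40, adjusted p 0.103), and *Notch1*, at 70.7 ± 1.73 and 58.6 ± 3.11 CPM (log2FC -0.27, adjusted p 0.142), had the smallest p. *Hes1*, the Notch target that represses *Atoh1* directly, was at 40.2 ± 4.94 and 36.8 ± 2.07 CPM, with overlapping groups (log2FC -0.12, 95% CI -0.35 to 0.11).

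Genes of the sister lineages were counted in the same way. Over all 16670 genes tested by limma, 1177 were higher and 1046 lower at an unadjusted p below 0.05. At an adjusted p of 0.1 the shares of all genes were 1.41% higher and 0.558% lower, and at 0.05 they were 0.498% and 0.144%. Of 14 enteroendocrine fate factors, among which *Foxa1* and *Foxa2* are also counted, 0 were called in either direction at 0.05 by limma and 1 by limma-voom (*Foxa2* itself), 1 was higher and 2 were lower at an unadjusted p below 0.05, and the median log2FC was -0.18. *Neurog3*, the factor that starts the enteroendocrine path, was below 1 CPM in all mice, with means of 0.600 and 0.651 CPM, and *Neurod1*, downstream of it, was at 1.91 ± 0.425 and 1.09 ± 0.169 CPM (log2FC -0.75, adjusted p 0.294 in limma). Of 9 tuft cell genes tested, 0 were called at 0.05 by limma or limma-voom, 3 were higher at an unadjusted p below 0.05 and 2 at an adjusted p of 0.1, of which *Trpm5*, a taste-transduction channel, was at 8.63 ± 1.18 and 14.3 ± 0.999 CPM (log2FC 0.73, adjusted p 0.0522). None of 11 absorptive colonocyte genes was called by limma at either threshold or by limma-voom at 0.05, while 2 were higher and 1 was lower at an unadjusted p below 0.05, with a median log2FC of 0.13. Immediate early genes, which respond to growth signals and to tissue handling, included 4 of 19 that fell: *Atf3* by 1.18, *Egr1* by 0.76, *Zfp36* by 0.72 and *Dusp1* by 0.63 on the log2 scale, with adjusted p of 0.0286, 0.0335, 0.0321 and 0.0450. The median log2FC was -1.74 for the smooth muscle markers, -2.18 for the B cell markers and 0.12 for the epithelial markers, and 0 genes of these 3 lists were called by limma or limma-voom at 0.05. Without GSK503-treated mouse 3, limma called 4 of 8 smooth muscle markers and 2 of 6 B cell markers lower, and 104 of all 16670 genes. At an unadjusted p below 0.05, 0 smooth muscle markers differed, 3 B cell markers were lower and 2 epithelial markers were higher.

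**Figure D4:**
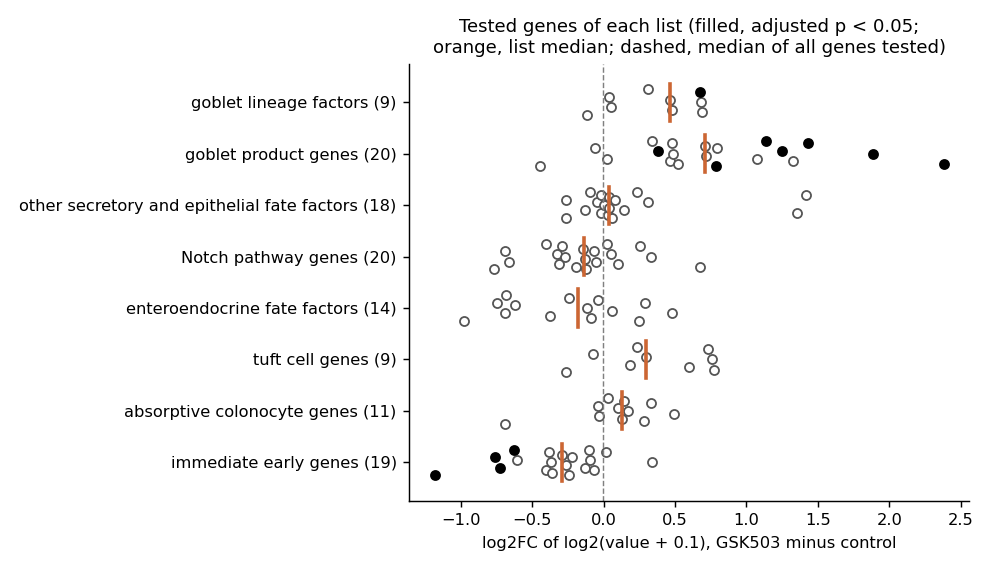
log2FC (GSK503 minus control) of each tested gene of the 9 factors and of the lists of related genes, with a bar at each list's median. The medians are 0.46 for the goblet lineage factors, 0.71 for goblet products, -0.14 for Notch pathway genes and -0.18 for enteroendocrine fate factors.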

How the data were processed

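Total RNA was sequenced from colonic crypts of 3 control and 3 GSK503-treated mice, with the group and number of each mouse as its label gives them. The conditional allele that all the mice share is not reported here. The authors aligned paired-end reads of 76 bases with STAR (GRCm39) and obtained gene-level estimates with RSEM, which they scaled by TMM before deposit. Each deposited signal value is therefore an estimated count relative to the TMM-scaled library (called CPM in the text). A count test was therefore not used as the main test. The strand setting and any filter before deposit are not given in the sources used here. Library totals were estimated from the worth of a single count, and 82.7% to 85.0% of values below 5 CPM were whole multiples of it within 0.05 counts. Whether libraries came from separate litters or preparation days was not stated.

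Groups were compared with limma 3.58.1 (R 4.3.3; lmFit, eBayes with an intensity trend) on log2(value + 0.1), for genes with at least 0.1 in at least 3 mice, two-sided, with Benjamini-Hochberg adjustment over all genes. Single ratios and shares were compared with exact two-sided permutation tests over mice. Gene symbols were matched to GENCODE annotation of GRCm39 (17212 of 18049, 95.4%), and per kb levels used the canonical transcript length. The 9 factors, the related gene lists and the tests were chosen with earlier results of these data known. Genes named are the factors, up to 4 per list and direction with the smallest p, and *Xbp1*, *Bhlha15*, *Hes1*, *Sox9* and *Neurog3* whatever their values. The 3 genes most like each factor and *Xist*, *Uty*, *Krt8*, *Epcam* and *Cldn7* are named as well. The 4 products of the alternative denominator were named outside this rule, after their values were seen. Alternatives were other scalings, pseudocounts, filters and variance models, limma-voom on recovered counts, a replicate block, leaving out X and Y genes and leaving out each mouse. Scaling to the epithelial markers used only *Krt8*, *Epcam* and *Cldn7* of that list. The fit was tested on simulated data. No 2 libraries were identical (Pearson's r 0.976 to 0.990). Tables were made with pandas 2.3.3 and numpy 2.4.6, permutation tests with scipy 1.17.1 and figures with matplotlib 3.10.9, in Python 3.11.15.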

Additional observations from a re-analysis of the deposited data

How the results depend on the processing

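With the settings reported, 1 factor was called higher. The number was 0 with scaling by library size alone, scaling to the epithelial markers, a pseudocount of 0.01 or of 1, no filter on low values, no intensity trend or a replicate block, 2 with a mean of at least 1 CPM, robust empirical Bayes or limma-voom, and 3 at an adjusted p below 0.1, chosen after seeing the data. Leaving out each mouse in turn gave 0 to 1. The cause of these changes was not tested. No factor was called lower in any alternative at 0.05. The log2FC of *Atoh1*, *Spdef*, *Gfi1*, *Creb3l4*, *Foxa2* and *Foxa3* kept its direction in all 18 alternatives, with *Creb3l4* between 0.18 and 0.38. *Creb3l1* turned to -0.066 with scaling by library size alone and to -0.036 with scaling to the epithelial markers, and lay between -0.041 and 0.11 without each mouse. *Klf4* turned to -0.074 and -0.044 under the same scalings and lay between -0.083 and 0.12 without each mouse. Scaling by library size alone gave a median log2FC over all genes of -0.12. The number of all genes called at 0.05 was 83 higher and 24 lower, 23 and 10 with the replicate block, 9 and 7 without the intensity trend, and 125 and 104 without GSK503-treated mouse 3. With scaling by library size alone lower calls outnumbered higher ones, at 178 against 83. Under the replicate block *Spdef* had an adjusted p of 0.0674. Mice with the same number did not deviate together (r = 0.032, -0.13 and -0.12 across genes), and no mouse correlated best with its own number. These values gave no sign that the numbers pair the mice. They cannot show whether mice shared a litter or a preparation day. The 7 goblet products called ranged from 0 to 8 over the alternatives, the 4 immediate early genes from 0 to 6, and the Notch pathway genes called lower from 0 to 2.

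Relative to *Fcgbp*, *Clca1*, *Zg16* and *Tff3* in place of all 20 products, the log2 difference was -0.78 for *Atoh1*, -0.57 for *Spdef*, -0.56 for *Gfi1*, -1.20 for *Creb3l1*, -0.93 for *Creb3l4*, -1.36 for *Foxa1*, -0.77 for *Foxa2*, -0.56 for *Foxa3* and -1.20 for *Klf4*. Relative to the epithelial markers *Krt8*, *Epcam* and *Cldn7* it was 0.38, 0.59, 0.60, -0.036, 0.23, -0.20, 0.39, 0.60 and -0.044 in the same order.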
